A study of Salmo salar with 12 samples.

Results

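The miR-92a arms and the miR-25 seed family were read in the small RNA of adherent cells of Atlantic salmon. The members were the rows of the count table whose name began with ssa-miR-92a-, ssa-miR-92b- or ssa-miR-25-, and 8 of the 361 rows met this rule. They were ssa-miR-92a-3p, ssa-miR-92a-5p, ssa-miR-92a-3-5p, ssa-miR-92a-4-5p, ssa-miR-92b-5p, ssa-miR-25-3p, ssa-miR-25-5p and ssa-miR-25-3-5p. A number before the arm marks the hairpin copy, so the 5p counts of miR-92a were split over 3 rows, whereas its 3p counts stood in 1 row with no copy number. Which copies a row without a number stands for is not given in the sources used here. Of the 361 rows, 180 had a count in at least 1 library, and these included 7 of the 8 members. The remaining member, ssa-miR-92b-5p, was at 0 in all 12 libraries.

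A microRNA is cut from a hairpin with 2 arms, and in most families one arm is kept as the guide while the other, the passenger, is degraded. In miR-92a, miR-92b and miR-25 the 3p arm is the usual guide, and the family shares one seed, the stretch near its 5′ end that pairs with target mRNAs. In mammals, miR-92a comes from the miR-17-92 cluster and its paralogue, which are known for their role in blood cell development, and miR-25 comes from the miR-106b-25 cluster in an intron of Mcm7.

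The 2 groups were AIC, the adherent cells of the distal intestine, and AKC, those of the head kidney, the tissue in which fish make blood cells, with 6 libraries each. The fish were seawater-reared post smolts averaging 550 g, fed a commercial diet and starved for a day before sampling, and no genotype or treatment separated the groups. The study sampled 6 fish and dissected both organs, so libraries of the 2 groups may share a fish, and no source used here states that a replicate number marks one. Leukocytes isolated from each organ were left to adhere for 2 days at 12°C in L-15 medium, and the whole adherent pool was sequenced, from 50 ng of RNA with 25 PCR cycles. A library is therefore a mixture of cell types, and fewer cells of a type and less RNA per cell cannot be told apart in any value below.

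Total counts ranged from 2253241 to 11804738 in AIC and from 5791813 to 19586478 in AKC. Normalised counts are CPM, counts scaled to a library size of 1000000, after TMM scaling, which adjusts library sizes for composition, and at these depths 3 counts corresponded to between 0.105 and 1.59 CPM. miRNAs known in mammals from intestinal epithelium and enteroendocrine cells (the miR-192, miR-194, miR-200, miR-429 and miR-375 rows, 14 of 19 with a count) summed to between 249267 and 478126 CPM in AIC and between 58.5 and 245 CPM in AKC. Nearly all of the AIC sum was 1 enteroendocrine miRNA, ssa-miR-375-3p (237684 to 466192 CPM), and the other rows of the list summed to between 8086 and 12618 CPM in AIC and between 0.328 and 72.6 CPM in AKC. Leukocyte miRNAs (miR-142, miR-150 and miR-155, 3 of 4 rows with a count) summed to between 2416 and 30182 CPM in AIC and between 9035 and 23096 CPM in AKC. Most of this sum was ssa-miR-150-5p (2409 to 29752 CPM in AIC, 8088 to 22194 CPM in AKC). The rows did not go one way. ssa-miR-155-5p was lower in AIC without overlap (6.67 to 430 CPM, against 531 to 4972 CPM in AKC). ssa-miR-142a-5p had counts in AIC only, 241 at most. ssa-miR-142b-5p and both rows of miR-144, a red blood cell miRNA, were at 0 in every library. The AIC libraries thus held ssa-miR-375-3p and epithelial miRNAs beside leukocyte miRNAs, and the part of this in the results below was not tested.

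ssa-miR-92a-3p was among the most abundant miRNAs of both cell pools and was lower in AIC. Its normalised count was lowest at 95109, with a median of 106631 and a highest value of 119216 CPM, in the AIC libraries (107872 ± 8845, SD, n = 6). In AKC the lowest, median and highest values were 169597, 227159 and 274257 CPM (221089 ± 42481, SD, n = 6). All AIC libraries lay below all AKC libraries, and the AIC values were packed closely while the AKC values fell into a wider band. The log2 fold change, AIC against AKC, was -1.04 (SE 0.18, 95% interval -1.43 to -0.64), with a Benjamini-Hochberg adjusted p of 0.000498 in edgeR's quasi-likelihood test over 76 miRNAs. A miRNA was called when its adjusted p was below 0.05 and its log2 fold change reached 1 in size, and the estimate lay close to this limit. On the same 76 miRNAs, leaving out AKC 3 ended the call (log2 fold change -0.96), and leaving out any of the other 11 libraries did not. When the filter on low counts was rerun without the library, the call was also lost without AIC 1, AIC 2, AIC 4, AKC 4 or AKC 6, with log2 fold changes between -1.02 and -0.93 and, except without AIC 4, an adjusted p above 0.05 in edgeR's test.

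**Figure D1:**
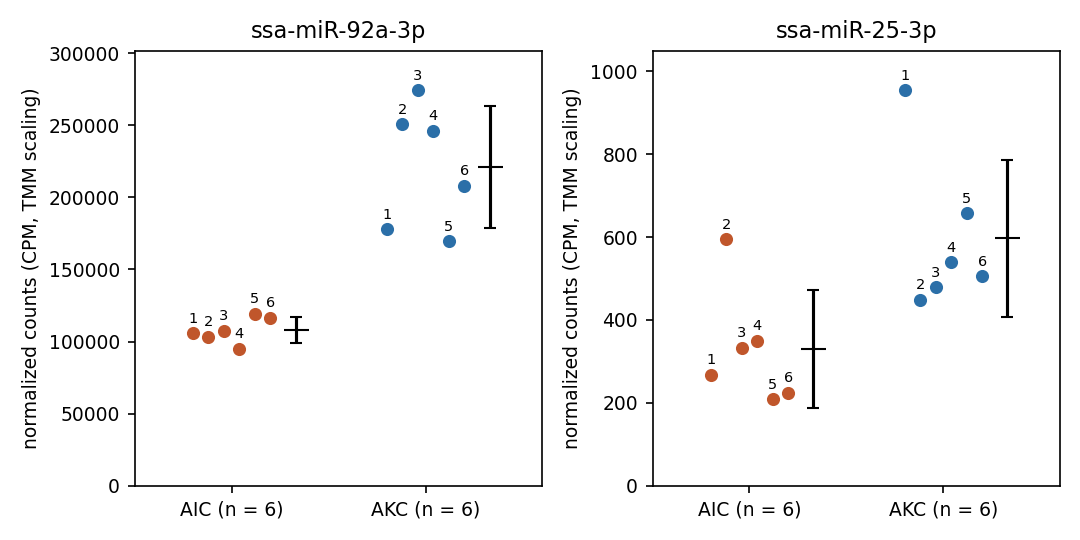
Normalised counts (CPM, TMM scaling) of ssa-miR-92a-3p on the left and ssa-miR-25-3p on the right in 6 AIC and 6 AKC libraries, with the replicate number at each point and bars for the mean ± SD. For ssa-miR-92a-3p the highest AIC library (119216 CPM) lies below the lowest AKC library (169597 CPM), whereas for ssa-miR-25-3p AIC 2 (594 CPM) lies among the AKC libraries.

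The size of the difference depended on how the libraries were scaled, and its distance from the median of all tested miRNAs did so less. The log2 fold change of ssa-miR-92a-3p was -1.16 with the size factors of DESeq2, -1.84 with total counts and -2.23 with the study's mapped reads as library size. The median over all 76 miRNAs moved with it, from 0.09 under TMM to -0.06, -0.65 and -1.18. Relative to that median, ssa-miR-92a-3p stood at -1.13, -1.10, -1.19 and -1.05, and ssa-miR-25-3p at -0.95, -0.99, -1.13 and -0.86.

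As a share of all miRNA counts of a library, ssa-miR-92a-3p made up a lowest value of 5.57%, a median of 8.26% and a highest value of 11.6% in AIC (8.27 ± 2.51, SD, n = 6). In AKC the shares were 25.9%, 28.6% and 36.1% (29.6 ± 4.12, SD, n = 6). The exact binomial 95% intervals of these shares were at most 0.0838 percentage points wide, which covers counting error only. No share in AIC reached the lowest in AKC. The mean share differed by -21.3 percentage points between AIC and AKC (interval -25.7 to -17.1), with an exact 2-sided permutation p of 0.00216, the smallest that 6 against 6 libraries allow, and 0.00649 after Benjamini-Hochberg adjustment over 6 values tested. ssa-miR-92a-3p was the miRNA with rank 2 in all 6 AKC libraries, rank 4 in 5 AIC libraries and rank 3 in AIC 6. ssa-miR-375-3p, an enteroendocrine miRNA in mammals, takes part of the AIC libraries. With its counts left out of the total the shares were 11 ± 3.47% in AIC and 29.6 ± 4.12% in AKC (SD, n = 6). With the other 4 most abundant miRNAs left out, ssa-miR-375-3p among them, the gap was narrower and AIC 5 no longer lay below AKC 1. The full separation of the shares thus depended on the total used.

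Under TMM scaling ssa-miR-92a-3p varied little among the replicates. Its coefficient of variation was 8.20% in AIC, the lowest of the 76 tested miRNAs, and 19.2% in AKC, rank 2 from the lowest, against medians of 66.5% and 60.5% over all. With total counts it was 30.3% in AIC (rank 12) and 13.9% in AKC (rank 1), and with the size factors of DESeq2 it was 30.9% (rank 11) and 25.5% (rank 7). The evenness of the AIC libraries was therefore a property of the TMM scale.

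ssa-miR-25-3p, the guide arm of miR-25, was far less abundant. Its normalised count in AIC was lowest at 209, with a median of 300.2 and a highest value of 594 CPM (SD 141, n = 6). In AKC the lowest, median and highest values were 448, 522 and 954 CPM (597 ± 189, SD, n = 6). The groups overlapped through AIC 2, which exceeded 4 of the AKC libraries, and the other 5 AIC libraries lay below all AKC libraries. The log2 fold change was -0.86 (SE 0.45, 95% interval -1.82 to 0.10), with a Benjamini-Hochberg adjusted p of 0.166 in edgeR's quasi-likelihood test, which did not pass. With total counts (-1.77) or mapped reads (-2.04) as library size, and in DESeq2's Wald test (-1.05), ssa-miR-25-3p was called lower in AIC.

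The ratio of miR-25 to miR-92a within a library does not depend on the library size. For every 1000 counts of ssa-miR-92a-3p, the AIC libraries held a lowest value of 1.75, a median of 2.81 and a highest value of 5.75 counts of ssa-miR-25-3p (3.12 ± 1.48, SD, n = 6). The AKC libraries held 1.74, 2.31 and 5.37 (2.90 ± 1.44, SD, n = 6). The ranges almost coincided, and the highest values were those of AIC 2 and AKC 1. Turned around, 1 count of ssa-miR-25-3p stood beside between 174 and 570 counts of ssa-miR-92a-3p in AIC and between 186 and 573 in AKC. The mean log2 ratio differed by 0.12 between AIC and AKC (interval -0.71 to 0.95), with an exact 2-sided permutation p of 0.753 (adjusted p 0.753). This interval spans a change of the ratio in either direction, and the sign of the difference turned without AIC 2 (-0.08) or without AKC 3 (-0.0025).

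**Figure D2:**
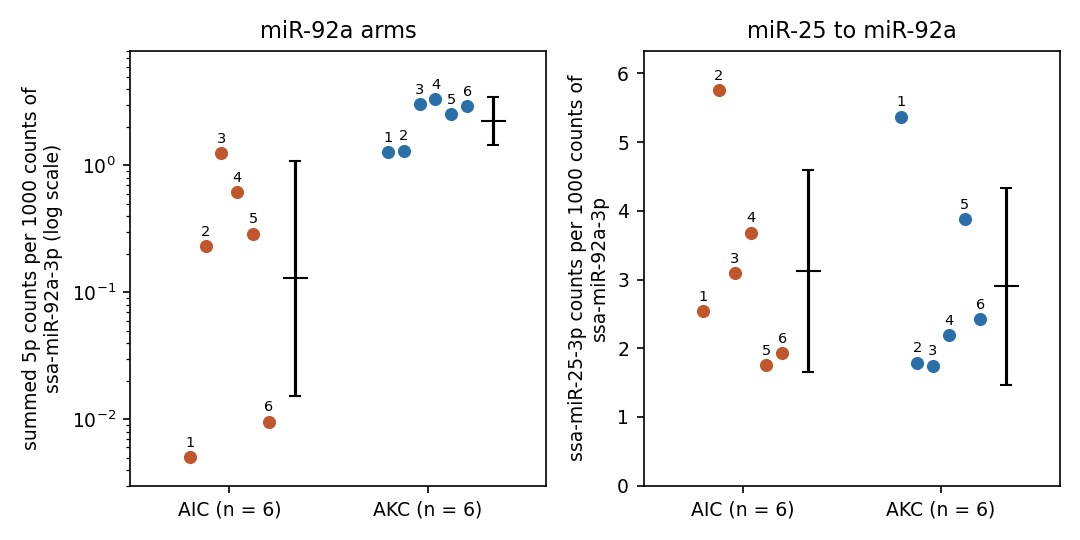
Within-library ratios in 6 AIC and 6 AKC libraries, with the summed 5p counts of miR-92a per 1000 counts of ssa-miR-92a-3p on the left (log scale, bars for the mean ± SD of the log2 ratio with a pseudocount of 0.5) and the ssa-miR-25-3p counts per 1000 counts of ssa-miR-92a-3p on the right (linear scale, bars for the mean ± SD). The AIC libraries lie below the AKC libraries in the arm ratio, with AIC 3 (1.25) next to AKC 1 (1.27), and the groups share one range in the miR-25 ratio.

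The passenger arm of miR-92a was sparse in both pools, and relative to its own 3p arm it was sparser in AIC. ssa-miR-92a-5p had 0, 0, 446, 200, 3 and 0.5 counts in AIC 1 to 6, and 3722, 2926.5, 4515, 1554, 4104 and 6407 counts in AKC 1 to 6. ssa-miR-92a-3-5p, from the copy numbered 3, had 1, 99, 407, 126, 3 and 1 counts in AIC and 1878, 1467, 3173, 2107, 1216 and 3247 counts in AKC. ssa-miR-92a-4-5p, from the copy numbered 4, had 0, 0, 0, 93, 67 and 1 counts in AIC and 831, 1184, 3369, 1307, 755 and 315 counts in AKC. Each AKC library held all 3 rows, with 315 counts or more, whereas AIC 4 was the only AIC library with over 10 counts in each of them. In these raw counts depth differed, as the AKC libraries were deeper on average and AIC 4 was the deepest AIC library (11804738 total counts).

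Summed over the 3 rows, the 5p counts per 1000 counts of ssa-miR-92a-3p were 0.00502, 0.232, 1.25, 0.612, 0.291 and 0.00954 in AIC 1 to 6, and 1.27, 1.30, 3.05, 3.31, 2.54 and 2.92 in AKC 1 to 6. The groups did not overlap, but AIC 3 lay just below AKC 1. AIC 1 and AIC 6, with summed counts of 1 and 2.5, were under the floor of 3 counts. The mean log2 ratio was lower in AIC by a difference of -4.12 (interval -7.43 to -1.52), a 17.3-fold higher ratio in AKC on the log scale, with an exact 2-sided permutation p of 0.00216 (adjusted p 0.00649). The size of the fold rested on the libraries with few counts. It was 9.84-fold without AIC 1, 10.7-fold without AIC 6, 27.4-fold without AIC 3 and 4.66-fold without both AIC 1 and AIC 6 (difference -2.22, exact permutation p 0.00476, the smallest for 4 against 6 libraries, a setting chosen after seeing the data). The direction and the separation of the groups did not rest on them. The mean ratios on the linear scale were 0.400 ± 0.474 in AIC and 2.40 ± 0.898 in AKC per 1000 (SD, n = 6). ssa-miR-92a-3p alone made up between 99.3% and 99.8% of all member counts in every library.

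**Figure D3:**
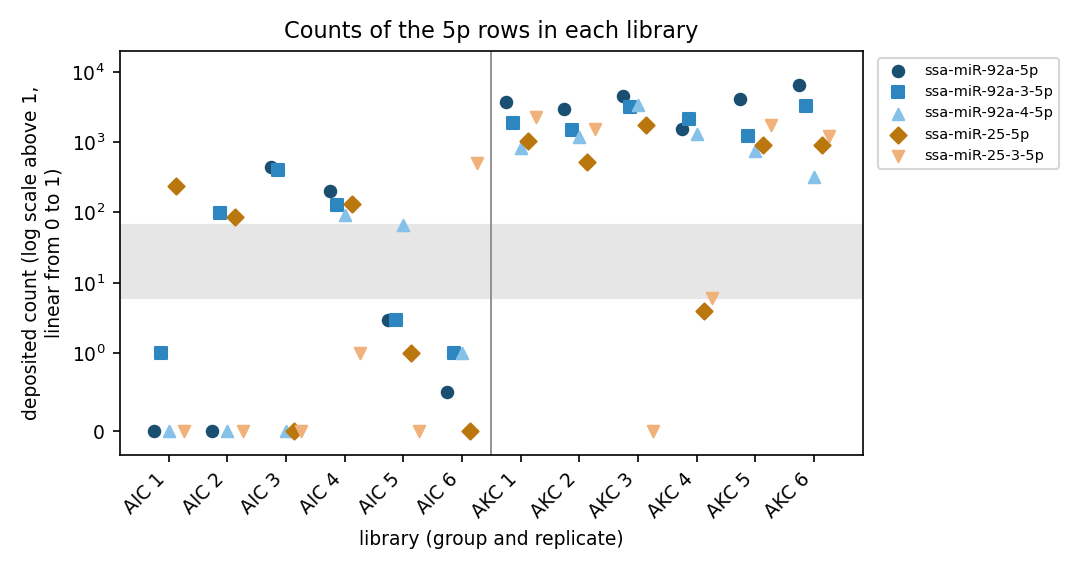
Deposited counts of the 5 expressed 5p rows of miR-92a and miR-25 in each AIC and AKC library (log scale above 1, linear from 0 to 1). The grey band from 6 to 67 counts holds no value, and most AKC values lie above it while most AIC values lie below it.

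In normalised counts, ssa-miR-92a-5p had a lowest value of 0, a median of 0.712 and a highest value of 70.5 CPM in AIC, and 130, 273 and 391 CPM in AKC. Its log2 fold change was -3.98 (SE 1.55, 95% interval -7.28 to -0.67), with a Benjamini-Hochberg adjusted p of 0.0660 in edgeR's quasi-likelihood test. ssa-miR-92a-3-5p had 0.444, 9.47 and 64.3 CPM in AIC and 65.7, 142 and 345 CPM in AKC, and its log2 fold change was -3.23 (SE 1.20, 95% interval -5.79 to -0.67), with an adjusted p of 0.0582 in the same edgeR fit. All AIC libraries lay below all AKC libraries in both rows, as in 10.5% of the 76 tested miRNAs, yet neither row passed this test. On all 12 libraries both rows were called with total counts, with mapped reads as library size and in DESeq2's Wald test. ssa-miR-92a-3-5p was also called with the size factors of DESeq2 (-3.52), and ssa-miR-92a-5p with no filter (-3.80). In edgeR's test with the low-count filter rerun, both rows passed without AIC 3, the highest AIC library in both (log2 fold changes of -5.60 and -4.62). Leaving out any of the other 11 libraries brought no call for either row. ssa-miR-92a-4-5p had 0, 0.222 and 31.8 CPM in AIC and 19.2, 61.4 and 255 CPM in AKC, and AIC 5 exceeded AKC 1 and AKC 6 while the other 5 AIC libraries lay below all of AKC. Its log2 fold change was -3.83 (SE 1.67, 95% interval -7.39 to -0.26), with an adjusted p of 0.0961 in the edgeR fit. When single libraries were left out on the same 76 miRNAs, ssa-miR-92a-4-5p passed only without AIC 5 (-5.27), its highest AIC library. When the filter was rerun, leaving out a library brought no call for this row. Without AIC 5 its log2 fold change was then -5.49, with an adjusted p of 0.0603 in edgeR's test. On all 12 libraries it was called with total counts, with mapped reads as library size and in DESeq2's Wald test.

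The passenger arm of miR-25 was present or absent library by library. ssa-miR-25-5p had 239, 86, 0, 130, 1 and 0 counts in AIC 1 to 6 and 1055, 523, 1775, 4, 906 and 901 counts in AKC 1 to 6. ssa-miR-25-3-5p, from the copy numbered 3, had 0, 0, 0, 1, 0 and 504 counts in AIC and 2273, 1554, 0, 6, 1762 and 1229 counts in AKC. AIC 6 thus held 504 counts of ssa-miR-25-3-5p and 0 of ssa-miR-25-5p, and AKC 3 held 1775 of ssa-miR-25-5p and 0 of ssa-miR-25-3-5p. The log2 fold change of ssa-miR-25-5p was -0.96 (SE 1.59, 95% interval -4.35 to 2.44), with a Benjamini-Hochberg adjusted p of 0.730 in edgeR's quasi-likelihood test, and ssa-miR-25-3-5p, with over 10 counts in 5 libraries only, was removed by the low-count filter. With no filter its log2 fold change was -1.24, with an adjusted p of 0.656 in edgeR's test.

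Set against the guide arm, the summed 5p counts of miR-25 came to 47.3%, 3.50%, 0%, 5.20%, 0.227% and 99.8% of the ssa-miR-25-3p counts in AIC 1 to 6. In AKC 1 to 6 they came to 12.2%, 27.1%, 28%, 0.304%, 28.7% and 25.7%. The arms of miR-25 were thus nearer to each other in count than those of miR-92a in most libraries, and in AIC 6 nearly equal. In AKC 1, 2, 5 and 6, where both rows had over 10 counts, ssa-miR-25-3-5p held between 57.7% and 74.8% of the miR-25 5p counts.

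Over the 5 expressed 5p rows and 12 libraries there were 60 values, of which 12 were at 0, 10 lay above 0 with a highest of 6 counts, and 38 were at 67 counts or more. No value fell between 6 and 67 counts. Of the 38, AIC had 11 of its 30 values and AKC 27 of its 30, and the 3 low AKC values were ssa-miR-25-3-5p in AKC 3 and both miR-25 rows in AKC 4. These are raw counts, and the AKC libraries were deeper, with a mean total of 11537305 counts against 5515952 in AIC. How often such a gap or split occurs over all rows was not counted, so neither is shown to be particular to these 5p rows. Libraries were amplified over 25 PCR cycles from 50 ng of RNA, and the part of amplification and depth in the gap and the split was not tested.

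The mix of rows behind the miR-92a 5p counts differed from library to library in both pools. In AKC 1 to 6, ssa-miR-92a-5p held 57.9%, 52.5%, 40.8%, 31.3%, 67.6% and 64.3% of the summed 5p counts (52.4 ± 14, SD, n = 6). It led in 5 of the 6 AKC libraries, and in AKC 4 ssa-miR-92a-3-5p led with 42.4%. The share of ssa-miR-92a-3-5p was 29.9 ± 7.43% and that of ssa-miR-92a-4-5p 17.8 ± 10.1% in AKC (SD, n = 6). The share of the row numbered 4 ran from 3.16% in AKC 6 (exact Clopper-Pearson 95% interval 2.83 to 3.52%) to 30.5% in AKC 3 (29.6 to 31.3%).

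Only 4 AIC libraries had the 30 summed 5p counts set as the minimum for a share. In AIC 2 all 99 counts were ssa-miR-92a-3-5p, and in AIC 3 the 853 counts were split into 52.3% ssa-miR-92a-5p and 47.7% ssa-miR-92a-3-5p. In AIC 4 the 419 counts were split into 47.7%, 30.1% and 22.2% over the unnumbered row and those numbered 3 and 4. In AIC 5, 91.8% of the 73 counts were ssa-miR-92a-4-5p. No 2 AIC libraries had the same composition, and a different row led in AIC 2, AIC 3 and AIC 5.

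**Figure D4:**
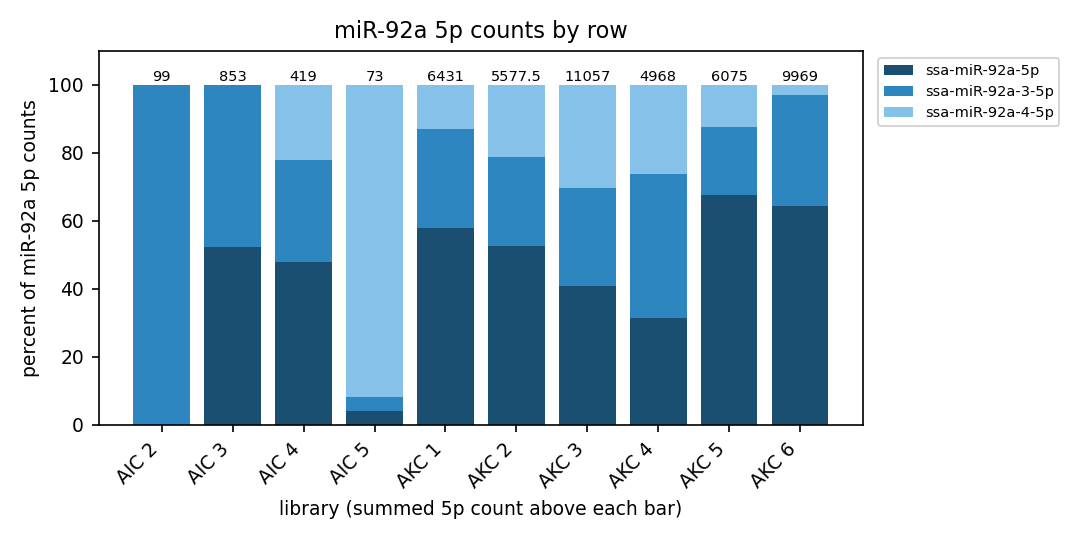
Share of each miR-92a 5p row in the summed miR-92a 5p counts (percent) for the 10 libraries with at least 30 such counts, with the summed count above each bar. All AKC libraries hold the 3 rows, with ssa-miR-92a-5p at 31.3% to 67.6%, whereas AIC 2 holds 1 row, AIC 3 holds 2, and 91.8% of AIC 5 is ssa-miR-92a-4-5p.

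The mean share of ssa-miR-92a-5p differed by -26.3 percentage points between AIC and AKC (interval -58.0 to 3.79), with an exact 2-sided permutation p of 0.0857 (adjusted p 0.171). For ssa-miR-92a-3-5p the difference was 15.6 points (interval -15.9 to 51.8), with an exact p of 0.433 (adjusted p 0.65). For ssa-miR-92a-4-5p it was 10.7 points (interval -21.2 to 52.2), with an exact p of 0.729 (adjusted p 0.753). None of the 3 differences passed, with 4 libraries against 6 and a smallest possible p of 0.00476. For ssa-miR-92a-3-5p and ssa-miR-92a-4-5p the wide intervals leave large shifts in either direction possible. For ssa-miR-92a-5p the interval leaves a large shift possible only toward a lower share in AIC. The 3 differences moved when single libraries were left out. Without AIC 3 or AIC 4 the ssa-miR-92a-5p difference had an unadjusted exact permutation p of 0.0357. The ssa-miR-92a-3-5p difference was -2.57 points without AIC 2, and 29.4 points without AIC 5, with an unadjusted exact permutation p of 0.0357. Without AIC 5 the ssa-miR-92a-4-5p difference was -10.4 points. Summed over libraries, the 3 rows held 44.9%, 44.0% and 11.1% of the 5p counts in AIC and 52.7%, 29.7% and 17.6% in AKC, so that ssa-miR-92a-4-5p was lower in AIC by this measure and higher by the mean of shares.

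Of the 8 members, 6 passed the filter on low counts, and ssa-miR-25-3-5p and ssa-miR-92b-5p did not. Of these 6, 1 was called (ssa-miR-92a-3p, lower in AIC). Over all 76 tested miRNAs, 26.3% were called in either direction and 9.21% were called lower in AIC. All 6 fold changes were below 0 and their median was -2.13, beside 37 of 76 below 0 and a median of 0.09 over all. In 3 of the 6 rows all AIC libraries lay below all AKC libraries (ssa-miR-92a-3p, ssa-miR-92a-5p and ssa-miR-92a-3-5p), beside 10.5% of the 76. DESeq2's Wald test called 5 of the 6 lower in AIC, all but ssa-miR-25-5p, beside 22.5% of the 71 miRNAs to which it gave an adjusted p. The 5p rows of one hairpin family share their source and are not independent of each other. ssa-miR-92a-5p, ssa-miR-92a-3-5p and ssa-miR-92a-4-5p had over 10 counts in 6 AKC libraries, but in 2, 3 and 2 AIC libraries. These rows passed the filter mainly through AKC, which favours fold changes below 0. The median and the tallies of direction above are therefore a description only.

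**Figure D5:**
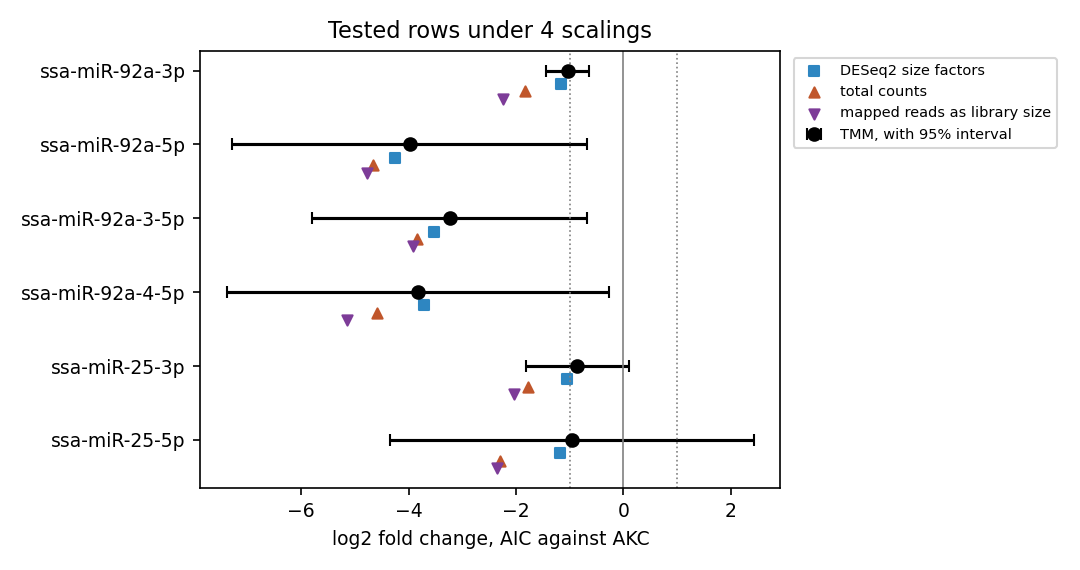
Log2 fold change, AIC against AKC, of the 6 tested members, with TMM scaling (points, bars for the 95% interval) and with 3 other scalings. All estimates lie below 0, the intervals of ssa-miR-25-3p and ssa-miR-25-5p reach above 0, and dotted lines mark a log2 fold change of 1 in either direction.

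The profile most like that of ssa-miR-92a-3p over the 12 libraries, by the root mean square difference of centred log2 CPM, was ssa-miR-462a-5p (0.44), followed by ssa-let-7c-5p (0.51) and its family member ssa-miR-25-3p (0.59), of 75 miRNAs. Its own 5p rows ranked 43, 58 and 65 in likeness. To ssa-miR-92a-5p the nearest were ssa-miR-92a-3-5p (2.22), ssa-miR-128-1-5p (2.82) and ssa-miR-19d-5p (2.84), with ssa-miR-92a-4-5p at rank 5 (3.0) and ssa-miR-92a-3p at rank 17. By this measure the 5p rows of miR-92a lay further from ssa-miR-92a-3p than ssa-miR-25-3p did, in a description over libraries sharing depth and group. The 5p rows were near the floor in several AIC libraries, where counting error widens the difference. Low abundance and a difference between arms cannot be told apart in these values.

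The relatives encoded beside miR-92a and miR-25 in vertebrate clusters, and their paralogues (miR-17, miR-18, miR-19, miR-20, miR-93 and miR-106), had 20 rows, of which 13 had a count. Of these 13, 11 had over 10 counts in at least 1 AKC library and 3 in at least 1 AIC library, beside 135 and 143 of all 180 rows with a count, in libraries that were deeper on average in AKC. In 6 of the 13 rows, over 10 counts were found in exactly 1 library, beside 39 of all 180 rows with a count. ssa-miR-19d-5p, a passenger arm of the miR-19 family, reached no more than 2 counts in AIC, whereas the AKC libraries held 1028 to 3081 counts. It was called lower in AIC, with a Benjamini-Hochberg adjusted p of 0.000294 in edgeR's quasi-likelihood test, and its fitted fold is no bound because AIC lay at the floor. ssa-miR-93a-5p, the guide arm of a miR-17 family member, was the other row to pass the filter, with a log2 fold change of -3.67 and an adjusted p of 0.119 in the edgeR fit. Of the 2 relatives that passed the filter, 1 was thus called lower and 0 higher. Over 10 counts were found in 0 AIC and 6 AKC libraries for ssa-miR-19d-5p, and in 1 and 5 for ssa-miR-93a-5p. Both rows passed the filter mainly through AKC, so this tally cannot show a direction for the relatives. The remaining 11 rows with a count did not pass the filter, and among them ssa-miR-17-5p had over 10 counts in 4 AKC libraries and 0 counts in all AIC libraries.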

How the data were processed

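Small RNA of AIC and AKC was sequenced in 6 libraries per group, which the study describes as biological replicates. Per the methods of the study, reads were trimmed, mapped to ICSASG_v2 with mapper.pl and counted with quantifier.pl of miRDeep2 against salmon miRNAs of miRBase. The submitters' processing notes name cutadapt 1.12, FastQC 0.11.5, bcl2fastq 2.20.0.422 and DESeq2 1.20.0. The authors deposited these as estimated counts of mature miRNAs, without scaling to library size. In 12 of 361 rows some counts had fractions, including 2 values of ssa-miR-92a-5p. How reads that match several hairpin copies were shared out is not given in the sources used here, so the split over rows of one family is uncertain.

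Counts were rounded to whole numbers for the model fits and used as deposited for ratios and shares. filterByExpr (minimum count 10) kept 76 miRNAs, and edgeR 4.0.16 with limma 3.58.1 in R 4.3.3 compared the groups with TMM factors and the quasi-likelihood test. A miRNA was called when its p, adjusted by the method of Benjamini and Hochberg, was below 0.05 and its log2 fold change reached 1 in size. The SE is the absolute log2 fold change divided by the root of the F statistic, and 95% intervals use the total degrees of freedom of edgeR. Single values per library (6 in all) were compared by exact 2-sided permutation tests over libraries, with intervals by inverting the test and a pseudocount of 0.5 for log2 ratios. Shares of 5p rows needed at least 30 summed 5p counts. A group at or under 3 counts was treated as a floor. Intervals of shares cover counting error only, as PCR copies are not independent molecules. The fits were run on simulated data, but with less spread than the common spread of these data and only large fold changes. Those runs therefore do not give error rates or power for the rows above.

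The members, lists and markers were chosen with earlier results of these data known. Named are all members, the relatives kept by the filter, and the 3 miRNAs nearest in profile to ssa-miR-92a-3p and to ssa-miR-92a-5p. miR-141, miR-223, miR-451 and miR-363 of the lists were not analysed here. ssa-miR-375-3p, ssa-miR-142a-5p, ssa-miR-142b-5p, ssa-miR-150-5p, ssa-miR-155-5p and ssa-miR-17-5p were named after their values were seen. Alternatives were other scalings (among them mapped reads given in the supplement of the study), other filters, DESeq2 1.42.0 (which left 5 of the 76 miRNAs without an adjusted p), the replicate number as a block, other pseudocounts and minimums, and leaving out each library. Leaving out libraries on the same 76 miRNAs, and leaving out AIC 1 and AIC 6 together, were added after seeing the data. Ratios and plots used Python 3.11.15, NumPy 2.4.6, pandas 2.3.3, SciPy 1.17.1 and Matplotlib 3.10.9.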

Additional observations from a re-analysis of the deposited data

Results flagged for a closer look

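In 4 of 28 group values examined, 1 AIC library lay far from the other 5 by Dixon's test. For normally distributed values, chance does this in about 1 in 20 groups. Several groups here held zeros, and the 28 reused the same rows, so that rate is no measure of chance for them. ssa-miR-25-3-5p was at 224 CPM in AIC 6, with the nearest AIC library at 0.139 CPM. ssa-miR-25-5p was at 127 CPM in AIC 1, with the nearest at 20.8 CPM. ssa-miR-25-3p was at 594 CPM in AIC 2, with the nearest at 350.2 CPM. ssa-miR-92a-3-5p was at 64.3 CPM in AIC 3, with the nearest at 23.9 CPM. These were 4 different libraries.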

How the results depend on the processing

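The counts of calls moved with the scaling, the filter and the test. With all 12 libraries 20 of 76 miRNAs were called (13 higher and 7 lower in AIC). Of the same 76, 33 were called with mapped reads as library size (9 higher, 24 lower), and total counts gave 9 higher and 20 lower. DESeq2 called 33 of the 71 to which it gave an adjusted p. With no filter 180 miRNAs were tested, so those counts have a larger base. There edgeR called 41, and DESeq2, which left 46 of the 180 without an adjusted p, called 57. Of the 6 members tested with the filter, 2 were called with the size factors of DESeq2. With total counts, mapped reads or DESeq2, 5 of the 6 were called. With no filter 7 members were tested, of which edgeR called 2 and DESeq2 5. When a library was left out, 0 to 3 members were called. Both relatives that passed the filter were called with total counts, mapped reads or DESeq2. DESeq2 without a filter called 3 of the 13 relatives with a count, and 1 to 2 were called when a library was left out. The cause of these changes was not tested.

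ssa-miR-25-3p was called with total counts (-1.77), mapped reads (-2.04) and either DESeq2 test (-1.05). ssa-miR-92a-5p was called with total counts (-4.66), mapped reads (-4.78), no filter (-3.80) and either DESeq2 test (-4.26). For ssa-miR-92a-3-5p the calls came with total counts (-3.85), mapped reads (-3.91), the size factors of DESeq2 (-3.52) and either DESeq2 test (-3.52). For ssa-miR-92a-4-5p they came with total counts (-4.60), mapped reads (-5.15) and either DESeq2 test (-3.70). Leaving out a library gave log2 fold changes between -1.29 and -0.93 for ssa-miR-92a-3p (-1.21 to -0.96 on the same 76 miRNAs, a setting added after seeing the data) and between -5.60 and -3.53 for ssa-miR-92a-5p (-5.60 to -3.55). The log2 ratio of miR-25 to miR-92a ranged from -0.082 to 0.32. The share differences ranged from -35.1 to -17.7 points for ssa-miR-92a-5p, from -2.57 to 29.4 for ssa-miR-92a-3-5p and from -10.4 to 20.2 for ssa-miR-92a-4-5p, which was -6.65 with at least 100 summed 5p counts. The share of ssa-miR-92a-3p (-22.1 to -20.0 points) and the arm ratio (-4.77 to -3.30) kept their direction and an exact p below 0.05 without each library.

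Libraries with the same replicate number did not deviate together (correlations between -0.118 and 0.0717, and 0 libraries correlated best with their own number). The numbers were therefore not used as pairs. Both organs were dissected from the 6 fish sampled, and such correlations cannot exclude that libraries of the same number share a fish. With the number as a replicate block, 22 miRNAs and 3 members were called, among them ssa-miR-92a-5p (-7.96) and ssa-miR-92a-3-5p (-4.80), and ssa-miR-92a-3p stayed called (-1.02). Sign flips over the same pairing gave 0.0312 for the share and for the arm ratio, the smallest exact p of 6 pairs, and 0.812 for the ratio of miR-25 to miR-92a.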
